A study of Mus musculus with 2 samples.

Results

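The 10 genes described here encode the T cell receptor constant regions (Trac, Trbc1 and Trbc2), the CD3 and zeta chains that signal for the receptor (Cd3e, Cd3d, Cd3g and Cd247) and the co-receptors (Cd4, Cd8a and Cd8b1). They were taken by gene symbol, and all 10 were found among the 43346 genes of the deposited gene tables. The samples were 2 polyadenylated RNA libraries of 1 spleen, taken from a male mouse of the C57BL/6J strain at an age of 10 weeks, and labelled technical replicates 1 and 2 of 1 biological replicate. No treatment, transgene or mutation is named in the labels, so the comparison was replicate 2 over replicate 1 of the same organ.

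The alpha beta T cell receptor recognises a peptide bound to an MHC molecule. Its variable segments make the contact, while its constant regions anchor each chain in the membrane and hold it against the CD3 epsilon, delta and gamma chains and the zeta chain, which carry the phosphorylation motifs that start signalling. CD4 binds MHC class II and marks helper and regulatory T cells, and CD8, a dimer of alpha and beta chains, binds MHC class I and marks cytotoxic T cells. In the spleen these cells fill the T zones of the white pulp. Some of the members are also known from other spleen cells: Cd247 from NK cells, Cd8a from a class of dendritic cells, and Cd4 from other dendritic cells.

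The sequences of the receptor constant genes matter to the counts because Trbc1 and Trbc2 are near-identical copies. Their coding sequences of 521 bases differed at 23 positions, an identity of 95.6% in GENCODE M21 transcripts. Exon 1 differed at 1 of 375 positions and exon 3, which encodes most of the membrane anchor, at 15 of 107. The window around the single difference in exon 1 (GRCm38, chr6:41538457-41538497 for Trbc1 and chr6:41546969-41547009 for Trbc2, plus strand) and the whole of exon 3 (chr6:41539229-41539335 and chr6:41547772-41547878) are shown 5′ to 3′ with the differing bases in capitals.
Trbc1 exon 1 window: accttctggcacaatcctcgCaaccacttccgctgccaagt
Trbc2 exon 1 window: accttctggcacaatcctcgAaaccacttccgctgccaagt
Trbc1 exon 3: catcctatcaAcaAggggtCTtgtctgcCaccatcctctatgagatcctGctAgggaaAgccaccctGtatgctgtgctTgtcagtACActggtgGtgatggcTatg
Trbc2 exon 3: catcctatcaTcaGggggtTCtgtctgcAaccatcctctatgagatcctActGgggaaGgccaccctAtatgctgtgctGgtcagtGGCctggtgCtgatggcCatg
Of the 50-base windows of the transcripts, 283 of 688 in Trbc1 (41.1%) and 283 of 643 in Trbc2 (44.0%) occurred in both genes. Reads that fall inside such windows can only be divided by the quantifier, so the split between these genes rests on that division while their sum is not affected by it. Deposited expected and posterior mean counts lay close. For the leading Trbc1 transcript they were 1457.99 and 1457.4 in replicate 1, and 116.25 and 116.14 in replicate 2. For the Trbc2 transcript they were 2587.01 and 2587.03 in replicate 1, and 327.75 for each in replicate 2.

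The 2 libraries differed widely over the whole table. Per the labels, replicate 2 was made later, after a publication that used the first, so the time of preparation and the replicate number cannot be told apart. The gene tables summed to 27528824 expected counts for replicate 1 and 3806381 for replicate 2, which was 7.23 times less. Globin genes took 1.53% of the first sum and 30.92% of the second, and mitochondrially encoded genes took 4.92% and 0.46%. Of 12467 genes tested, the median log2 ratio of replicate 2 over replicate 1 was -0.55 after TMM scaling, which estimates library sizes from the bulk of the genes, and -1.53 after scaling to the total count. The TMM sizes thus moved every ratio up by 0.98 on the log2 scale. Calls below are set around an equal level in both libraries and not around these medians. A gene at the median of all tested genes can therefore be called lower. The ratio also climbed with GC content, from a median of -2.03 in the bin of genes at 38.9% GC to 2.63 in the bin at 60.01%. Where this trend is removed below, the overall TMM median is kept, so a gene on the trend stands near -0.55.

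Every member was lower in replicate 2 by TPM, the deposited abundance of transcripts corrected for their length. The members together made 1174 TPM and 20181 counts in replicate 1 and 240.3 TPM and 1128 counts in replicate 2, a TPM 4.89-fold lower. This lay near the shift of the whole table: on the log2 scale of TPM with a pseudocount of 1, the median was -2.31 over the members and -2.10 over all tested genes, and 80.8% of the tested genes were lower by more than 1.5-fold and 8.4% higher. With a pseudocount of 0.1 these shares were 81.5% and 8.83%. Globin genes alone took 42552 TPM in replicate 1 and 441904 in replicate 2, out of a sum that is equal in both libraries. The receptor constant genes held 55.4% of this TPM in replicate 1 and 55.3% in replicate 2, the CD3 and zeta chains 28.5% and 32.2%, and the co-receptors 16.1% and 12.5%. Without Cd3g-202, a short transcript model of Cd3g that held 37.4 TPM in replicate 2 on 35.1 counts, the shares were 55.5% and 65.5% for the constant genes, 28.4% and 19.6% for the CD3 and zeta chains, and 16.1% and 14.8% for the co-receptors, so that the CD3 share moved the other way. The members lay closer together in replicate 1, where they spanned 5.89-fold from Cd247 at 45.8 to Trbc2 at 269.8 TPM. In replicate 2, the 9 members with counts spanned 28.4-fold, from Cd3e at 3.53 to Trbc2 at 100.1 TPM, and Trac was listed at 0. In bulk tissue, fewer cells of a type and less RNA per cell cannot be told apart, and neither can be told from a shift that most genes share.

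**Figure D1:**
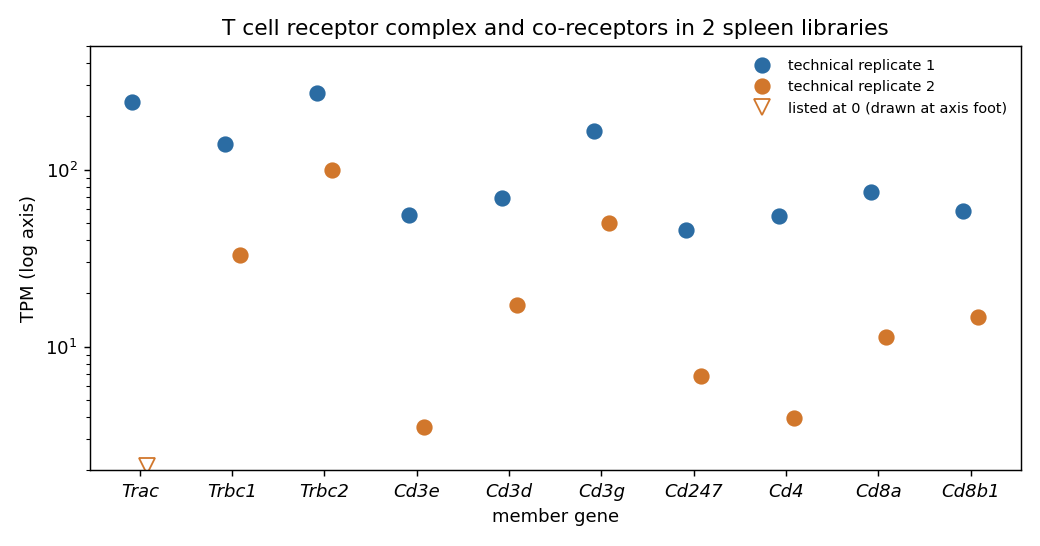
TPM (log axis) of the 10 members in technical replicate 1 (blue) and technical replicate 2 (orange), 1 point per library with no replicate error. All 10 members lie lower in replicate 2, by 2.69-fold for Trbc2 and 15.6-fold for Cd3e, and Trac, listed at 0 there, is drawn as an open triangle at the foot of the axis.

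In replicate 1 the order of TPM was Trbc2, Trac, Cd3g, Trbc1, Cd8a, Cd3d, Cd8b1, Cd3e, Cd4 and Cd247. The authors' deposited TPM intervals, which cover the estimation within a library, overlapped in 2 of 9 neighbouring pairs, Cd8b1 with Cd3e and Cd3e with Cd4. In replicate 2 the order was Trbc2, Cd3g, Trbc1, Cd3d, Cd8b1, Cd8a, Cd247, Cd4, Cd3e and Trac, with overlap in 6 of 9 neighbouring pairs. Only Trbc2 above Cd3g, Trbc1 above Cd3d, and Cd3e above Trac were separated there. The TPM of Trbc2 in both libraries and of Cd8a in replicate 1 lay just above its own deposited interval.

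For counts, a call of higher or lower required that the exact 95% interval of the ratio lie wholly beyond 1.5-fold. The interval covers counting error only, and with 1 library on each side there was no replicate check and no p-value. All 10 members passed the filter on low values. Under TMM scaling, 24.4% of the tested genes were called higher and 38.5% lower, and among the members 1 of 10 was higher (Trbc2) and 3 of 10 lower (Cd3e, Trac and Cd4). Under total count scaling, 14.6% of the tested genes were higher and 58.5% lower, and among the members 0 were higher and 6 lower (Cd3e, Cd3g, Cd247, Trac, Cd4 and Cd8a). Higher calls made up 38.8% of all calls under TMM and 19.97% under total count scaling. The shares over all tested genes are also the background for the gene lists below. The member shares lay near the background under both scalings, as did their median ratios of -0.59 (TMM) and -1.57 (total count).

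**Figure D2:**
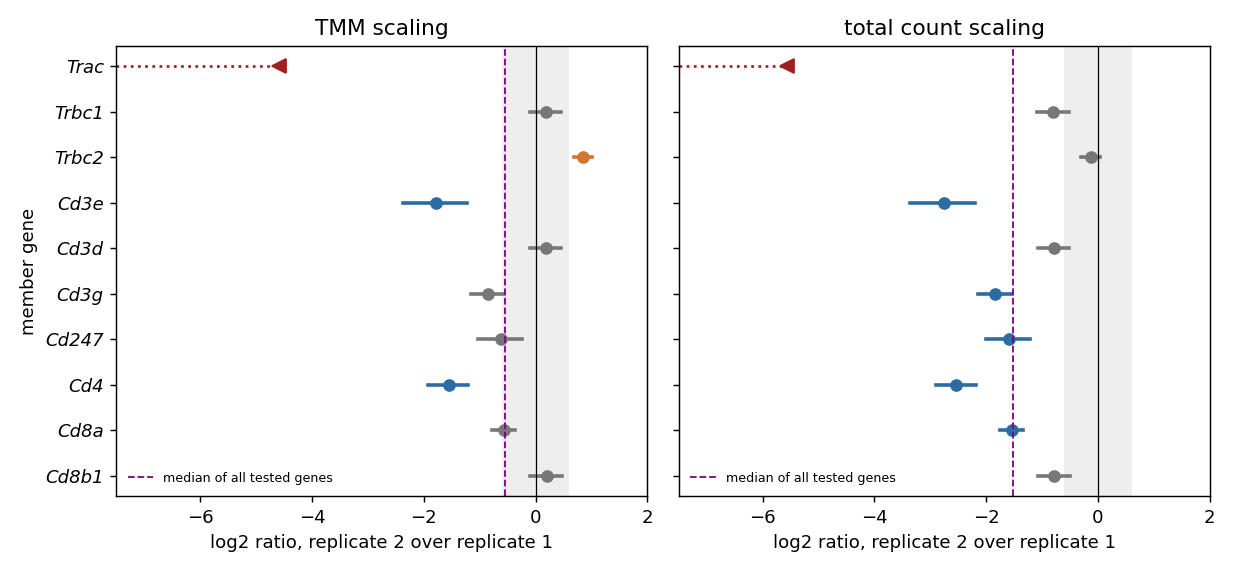
Log2 ratio of counts, replicate 2 over replicate 1, for each member under TMM scaling (left) and total count scaling (right), with bars for the exact 95% interval, a grey band within 1.5-fold and a dashed line at the median of all tested genes. Blue marks members called lower, orange called higher and grey neither, and the dark red triangle for Trac is its ratio at the floor of 3 counts with a dotted line toward lower values.

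Trac, the single constant gene of the alpha chain (GRCm38, chr14:54220521-54224206, plus strand), had the widest difference of the members. It held 1028 counts and 241.3 TPM in replicate 1, above 96.5% of the tested genes, and 0 counts in replicate 2. At the share of the total that it had in replicate 1, 142.1 counts would have been its level in replicate 2, or 72.2 at the TMM sizes. With the floor of 3 counts in place of 0, the ratio was 24.1-fold lower under TMM (-4.59 on the log2 scale) and 47.4-fold lower under total count scaling (-5.57). The exact 95% interval, on which the call rests, put Trac at least 19.5-fold lower under TMM and at least 38.5-fold lower under total count scaling. The upper bound of the authors' deposited TPM interval in replicate 2 was 1.63. Exon 1, which encodes the constant immunoglobulin domain of the alpha chain, is shown as the part of the gene that holds most of the bases counted (chr14:54220521-54220781, plus strand, 261 bases, 49.8% GC).
Trac exon 1: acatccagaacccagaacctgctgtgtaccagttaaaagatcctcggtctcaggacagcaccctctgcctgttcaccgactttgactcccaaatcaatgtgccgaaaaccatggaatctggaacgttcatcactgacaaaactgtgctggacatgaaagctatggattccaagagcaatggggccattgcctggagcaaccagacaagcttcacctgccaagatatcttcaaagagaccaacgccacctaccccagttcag
The GC content of the whole gene, 48.7%, lay among those of the other members, and the log2 ratio with the GC trend of all tested genes removed was -4.24.

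The model of Trac that was counted is short. It has 413 bases and ends at the stop codon, with 0 bases of 3′ untranslated sequence. GENCODE M21, a later release than the M4 of the tables, adds a transcript of 935 bases with 522 bases after the stop codon. Trac was the only member whose leading model by count had no bases after the stop. Over the tested genes, 5409 had at least as many counts as Trac in replicate 1, and 76 of these (1.41%) were at 0 in replicate 2. Among the tested genes of 300 to 500 bases, 169 of 293 (57.7%) were at 0 in replicate 2. The share was 8.06% for genes from 500 to 800 bases and 6.7% for all tested genes. Without the antigen receptor segments, it was 23 of 144 (15.97%) at 300 to 500 bases and 7.77% at 500 to 800. Those shorter genes also had fewer counts in replicate 1, at a median of 200 against 412, while Trac had 1028. Lower counts and shorter length were therefore not separated by this comparison. The comparisons by count and by length were chosen after the count of Trac was seen. The part of model length or of the missing 3′ end in the result was not tested. The joining segments of the alpha chain, which lie upstream of Trac, had no counts in either library, the deeper included, so they say nothing of a difference between the libraries. The nearest downstream genes with counts had them in both libraries, with 806 and 65 for Dad1, a subunit of the oligosaccharyltransferase, and 943 and 112 for Abhd4, a lipid hydrolase.

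Trbc1 and Trbc2, the alternative constant genes of the beta chain, lie 6849 bases apart on the plus strand (chr6:41538218-41539881 and chr6:41546730-41548352). Trbc2 had 2587 counts and 269.8 TPM in replicate 1 and 328 counts and 100.1 TPM in replicate 2, the highest TPM of the members in both libraries. It was the only member called higher under TMM, at a log2 ratio of 0.85 (95% interval 0.68 to 1.02), and was not called under total count scaling, at -0.13. Trbc1 had 1458 counts and 139.5 TPM in replicate 1 and 116 counts and 32.9 TPM in replicate 2. Its log2 ratio was 0.18 (-0.11 to 0.45) under TMM and -0.80 under total count scaling, and it was called under neither. The beta chain genes were thus counted in both libraries, in contrast to Trac.

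Within a library, the ratio of 2 genes needs no scaling. The count ratio of Trac to Trbc1 and Trbc2 together was 0.254 in replicate 1 and 0 in replicate 2, where the exact upper bound was 0.00830. The ratio of ratios had an upper bound of 0.0329, and the difference was called lower. Trbc1 over Trbc2 was 0.564 in replicate 1 and 0.354 in replicate 2, a ratio of ratios of 0.628 (0.499 to 0.786) that did not clear 1.5-fold. It rests on how the quantifier split reads between the copies.

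The variable segments, which are spliced to these constant regions in the mature transcript, were nearly absent from replicate 2. The 103 Trav genes held 692 counts in replicate 1 and 3 in replicate 2, and the 34 Trbv genes held 1806 and 3. Of all 149 variable genes, gamma and delta included, 31 were at 0 in replicate 1 and 147 in replicate 2. Most had few counts in replicate 1, and 17, all of them Trbv genes, passed the filter on low values. They passed it on their replicate 1 counts, since all Trbv genes together held 3 counts in replicate 2. They could therefore come out only as lower or not called. Under TMM 10 were called lower, a share that cannot be set against the 38.5% of all tested genes. Zeros in replicate 2 were not confined to the T cell receptor. Of tested genes of 300 to 500 bases, 169 of 293 were at 0 there. With immunoglobulin and T cell receptor segments left out it was 23 of 144, and only 17 T cell receptor variable genes were tested at any length. The 149 T cell receptor variable genes summed to 2561 and 6 counts, a log2 ratio of -4.91 (-6.35 to -3.78) under TMM. The beta chain thus had 444 counts on its constant genes and 3 on its variable genes in replicate 2, where replicate 1 had 4045 and 1806. The joining segments of the beta chain, like those of the alpha chain, were at 0 counts in both libraries and so show no difference either way.

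Cd3e, Cd3d and Cd3g stand together on chromosome 9. Cd3g (chr9:44969572-44980431, minus strand) and Cd3d (chr9:44981786-44987339, plus strand) start 1355 bases apart and point away from each other, and Cd3e (chr9:44998740-45009627, minus strand) ends 11401 bases beyond Cd3d. Despite this shared locus the 3 genes had different ratios.

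Cd3e, the epsilon chain that pairs with both gamma and delta, had 1314 counts and 55.1 TPM in replicate 1 and 27 counts and 3.53 TPM in replicate 2. It was lower under both scalings, at -1.77 (-2.38 to -1.23) on the log2 scale with TMM sizes and -2.75 with total counts. Cd3d, the delta chain, had 1499 counts and 69.2 TPM against 120 counts and 17.2 TPM. Its ratio was 0.19 (-0.09 to 0.46) under TMM and -0.79 under total count scaling, neither higher nor lower. Cd3d and Cd3e were therefore close in replicate 1 and apart in replicate 2: Cd3d over Cd3e was 1.14 in counts in replicate 1 and 4.44 in replicate 2, a ratio of ratios of 3.90 (2.53 to 6.19), called higher. The GC content of Cd3e was 50.5% and that of Cd3d 50.03%, and their lengths were 1436 and 1323 bases.

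Cd3g, the gamma chain, had 2554 counts and 164.9 TPM in replicate 1 and 99 counts and 49.7 TPM in replicate 2. Its log2 ratio was -0.86 (-1.16 to -0.57) under TMM, not called, and -1.84 under total count scaling, called lower. Cd3g over Cd3e was 1.94 in replicate 1 and 3.67 in replicate 2, a ratio of ratios of 1.89 (1.21 to 3.02) that did not clear 1.5-fold. In TPM the same pair went from 2.99 to 14.1, and the transcripts behind these values are described with the isoforms.

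Cd247, the zeta chain (chr1:165788681-165877277, plus strand), carries most of the phosphorylation motifs of the complex. It had 1268 counts and 45.8 TPM in replicate 1 and 58 counts and 6.86 TPM in replicate 2. Its log2 ratio was -0.62 (-1.02 to -0.24) under TMM, not called, and -1.60 under total count scaling, called lower. Cd247 over Cd3e was 0.965 and 2.15, a ratio of ratios of 2.23 (1.38 to 3.68) that did not clear 1.5-fold. The gene overlaps Pou2f1 on the opposite strand, which had 4713 and 33 counts, and whether the counting used strand is not given in the sources used here.

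NK cells carry CD247 without the receptor. All 4 called of the 7 NK genes tested were lower under both scalings, the list's summed TPM was 196.4 in replicate 1 and 48.8 in replicate 2, and none of its genes was at 0. The 2 with the lowest ratios were the receptors Ncr1, with 553 and 3 counts, and Klrb1c, with 785 and 7. Gzma, a granule protease, had 1333 and 157 and Klra8, a lectin-like receptor, 456 and 54. The members' summed counts over those of the NK list were 4.87 in replicate 1 and 4.59 in replicate 2, a ratio of ratios of 0.941 (0.816 to 1.09). Gzma and Klra8 held 211 of the 246 counts of the NK list in replicate 2 and 1789 of 4143 in replicate 1, so this sum follows those genes, and the median TMM ratio was -1.97 over the NK list and -0.59 over the members. The part of NK cells in the Cd247 counts was not tested.

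Cd4 (chr6:124864692-124888221, minus strand) had 2886 counts and 54.7 TPM in replicate 1 and 69 counts and 3.95 TPM in replicate 2. Its log2 ratio stood at -1.55 (-1.92 to -1.21) with TMM sizes and -2.53 with total counts, lower in each case. Cd8a and Cd8b1, which encode the chains of CD8, are neighbours on the plus strand (chr6:71373427-71379173 and chr6:71322788-71337494), with 35933 bases between them.

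Cd8a had 4208 counts and 75.1 TPM in replicate 1, the most counts of the members, and 200 counts and 11.4 TPM in replicate 2. Its log2 ratio was -0.56 (-0.78 to -0.36) under TMM, close to the median of all tested genes and not called. Under total count scaling it was -1.54, called lower though close to the median of -1.53. Cd8b1 had 1379 counts and 58.7 TPM against 111 counts and 14.7 TPM, and log2 ratios of 0.20 (-0.10 to 0.48, TMM) and -0.78 (total count), neither of them called. Cd8b1 over Cd8a was 0.328 in replicate 1 and 0.555 in replicate 2, a ratio of ratios of 1.69 (1.32 to 2.16) that did not clear 1.5-fold.

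The balance of the co-receptors is often read as a balance of helper and cytotoxic T cells. Cd4 over Cd8a was 0.686 in replicate 1 and 0.345 in replicate 2, a ratio of ratios of 0.503 (0.375 to 0.668) whose upper bound lay just short of the 1.5-fold line. Against Cd3e, Cd4 was nearly level, at 2.20 and 2.56 (ratio of ratios 1.16, 0.732 to 1.90). Cd8a over Cd3e was 3.20 and 7.41, a ratio of ratios of 2.31 (1.53 to 3.61), called higher at 1.5-fold and not at 2-fold or with a 99% interval.

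**Figure D3:**
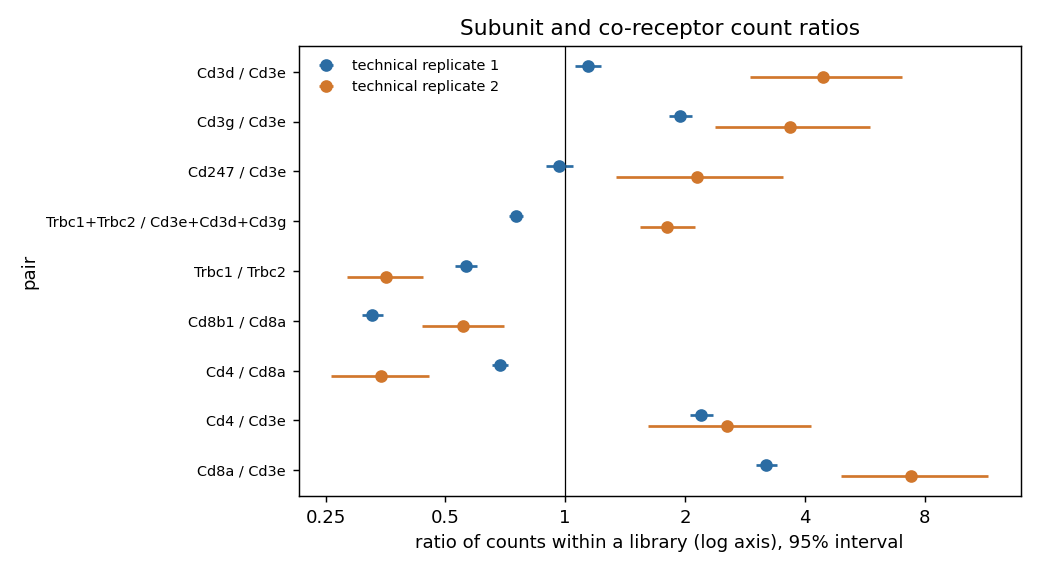
Ratio of expected counts of 2 members, or sums of members, within technical replicate 1 (blue) and technical replicate 2 (orange), on a log axis with bars for the exact 95% interval. The points for Cd3d over Cd3e stand farthest apart, at 1.14 and 4.44, while those for Cd4 over Cd3e have overlapping intervals, and the pair of Trac with Trbc1 and Trbc2 is left out because its ratio in replicate 2 is 0.

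The beta chain constant genes over the 3 CD3 genes of chromosome 9 were 0.754 in replicate 1 and 1.80 in replicate 2, a ratio of ratios of 2.39 (2.03 to 2.82), called higher. In TPM this pair was 1.42 and 1.89, inside 1.5-fold, and with Cd3g-201, the long transcript of Cd3g, in place of the whole gene it was 1.44 and 4.03. Of the 10 pairs compared, 4 were called by counts: Cd3d over Cd3e, Cd8a over Cd3e and the beta chain over CD3 were higher, and Trac over the beta chain was lower. Of the 5 pairs set against Cd3e alone, only Cd4 over Cd3e had an interval that included 1. With Cd3g-201 alone, Cd3g over Cd3e also included 1 (0.768 to 2.01). These pairs share the 27 counts of Cd3e in replicate 2, so they are not independent of each other.

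Dendritic cells of the spleen carry 1 or other of the co-receptor genes. Of 9 genes of the CD8-bearing class (cDC1), 2 were higher and 3 lower under TMM, and 1 higher and 6 lower under total count scaling, with a summed TPM of 451.7 and 126.4 and no gene at 0. Its receptor genes Clec9a and Xcr1 were lower, with 2810 and 36 counts and 1222 and 25, while Batf3, a transcription factor of this class, had 60 and 181 counts. Other leading genes of the list were Irf8 (6802 and 419 counts), Wdfy4 (11611 and 419) and Naaa (2557 and 385). The members' counts over those of this list were 0.698 and 0.660, a ratio of ratios of 0.945 (0.874 to 1.02), with Irf8, Wdfy4 and Naaa supplying 1223 of the 1709 counts of the list in replicate 2. The median TMM ratio of the list was -0.73.

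For the cDC2 class, part of which carries CD4, 5 of 6 genes were tested, with 0 higher and 2 lower under both scalings and a summed TPM of 240.6 and 59.7. Clec4a4, a lectin of this class, had 214 counts in replicate 1 and 0 in replicate 2, Irf4 had 4796 and 162, Sirpa 8566 and 791, Esam 422 and 51, and Clec10a 212 and 29. For plasmacytoid dendritic cells, which also carry CD4, 5 of 6 genes were tested, with 1 higher and 2 lower under TMM, 1 and 3 under total count scaling, and a summed TPM of 174.2 and 543.7. Bst2, an interferon-induced surface protein, had 690 and 1943 counts and supplied most of this sum in replicate 2, whereas Siglech had 1384 and 39, Tcf4 5011 and 264, Pacsin1 310 and 36, and Ccr9 936 and 0, and Cox6a2 was at 0 in replicate 2. The part of dendritic cells in the Cd4 and Cd8a counts was not tested.

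The members were also set beside B cells, red pulp macrophages and red cell precursors. Of 8 B cell genes, 3 were higher and 5 lower under both scalings, with a summed TPM of 3823 and 1290 and no gene at 0. The antigen receptor subunits Cd79a (12007 and 3916 counts) and Cd79b (14333 and 3164) and the transcription factor Pax5 (1219 and 680) were higher, and Cr2 (38399 and 845) and Cd22 (17827 and 433) lower. The members' counts over those of the B cell list were 0.140 in replicate 1 and 0.104 in replicate 2, a ratio of ratios of 0.741 (0.695 to 0.790). Cd79a and Cd79b supplied 7080 of the 10888 counts of the B cell list in replicate 2, and 26340 of 144413 in replicate 1. By the median TMM ratio the order was the opposite, at -1.17 over the B cell list and -0.59 over the members. Red pulp macrophage genes were mixed, with 3 higher and 2 lower of 6 under TMM, 1 and 2 under total count scaling, a summed TPM of 891.9 and 779.4 and no gene at 0. Their leading genes were C1qa (1464 and 3026 counts), Vcam1 (21100 and 860), Hmox1 (6023 and 806), Spic (3753 and 538) and Adgre1 (3592 and 52).

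Of 9 erythroid genes, 7 were higher and 0 lower under TMM, and 6 and 0 under total count scaling, with a summed TPM of 43127 and 442753. The globin genes Hba-a1 (210496 and 548615 counts), Hba-a2 (21359 and 534751) and Hbb-bs (150008 and 55954) made up most of it, while Slc4a1 (4584 and 381) was not called under either scaling. The members' counts over those of this list were 47.7-fold lower in replicate 2 (44.9 to 50.7). Globin counts are part of the sum that TPM and total count scaling divide by. With globin and mitochondrially encoded genes left out of the total the median log2 ratio of the tested genes was -1.08 and the members had 6 lower and 0 higher calls. The ratios of members to each other do not contain the globin counts.

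Transcript shares were read from the authors' deposited percent values, each the share of the TPM of a gene assigned to a transcript. The 10 members had 26 transcript models, of which 20 had counts in replicate 1 and 11 in replicate 2. For 5 members there was 1 model only. Of the 5 with more, 4 had the same leading model in replicates 1 and 2, and Cd3g did not.

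Cd3g-201, the full coding transcript, had 96.6% of the TPM of Cd3g in replicate 1 (2535 counts, 159.2 TPM) and 24.7% in replicate 2 (63.9 counts, 12.3 TPM). Cd3g-202 had 1.5% in replicate 1 (5.08 counts, 2.47 TPM) and 75.3% in replicate 2 (35.1 counts, 37.4 TPM). The second model has 294 bases in the tables, and its effective length, which divides the counts to give TPM, was 107.6 bases in replicate 1 and 159.5 in replicate 2. By expected count Cd3g-201 still led in both libraries, with 64.9% of the posterior mean counts in replicate 2. Cd3g-202 is a retained intron model of 2539 bases in the later GENCODE M21, where 293 of its bases are shared with exons of Cd3g-201. The TPM of Cd3g-201 alone was 13.0-fold lower in replicate 2, beside 3.32-fold for the whole gene. Counted by Cd3g-201 alone, Cd3g was called lower under TMM as well, at a log2 ratio of -1.48 (-1.86 to -1.12), and Cd3g over Cd3e was 1.93 and 2.37 (ratio of ratios 1.23, 0.768 to 2.01). This reading was chosen after the transcript values were seen.

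**Figure D4:**
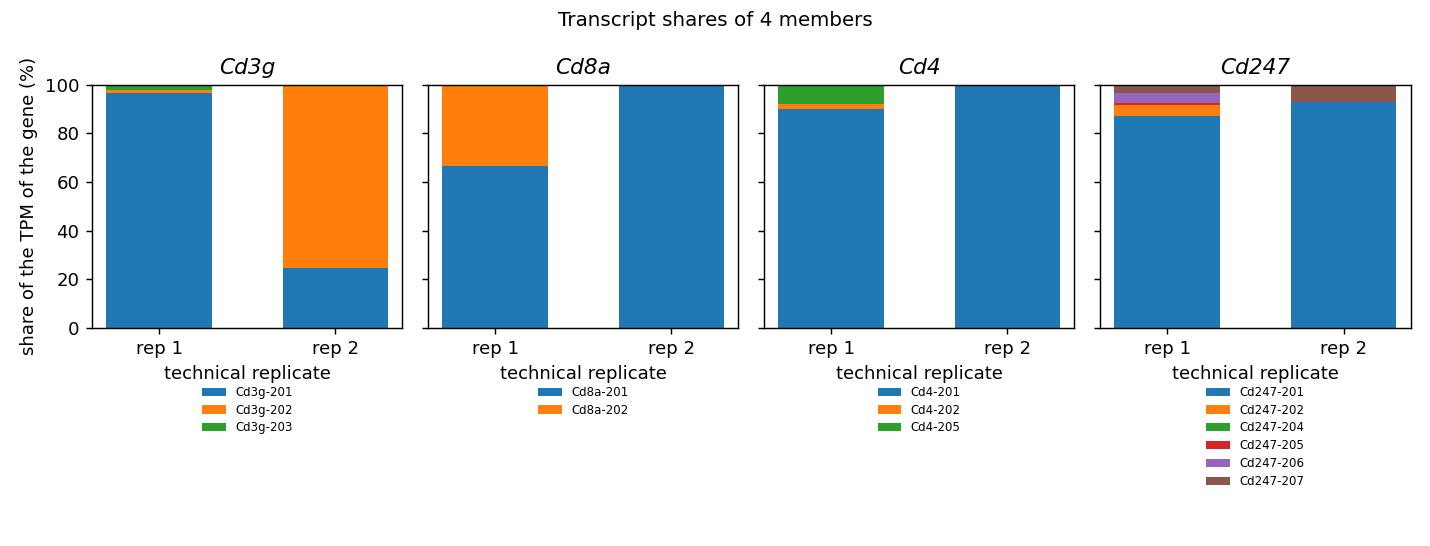
Stacked bars of the share of each gene's TPM (percent) assigned to its transcript models in technical replicates 1 and 2, for 4 members with more than 1 model. In Cd3g the leading model passes from Cd3g-201 (96.6%) to Cd3g-202 (75.3%), and in Cd8a the model Cd8a-202 goes from 33.3% to 0%.

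Cd8a has a full transcript, Cd8a-201, and a second, Cd8a-202, without a 31-base exon (GRCm38, chr6:71375888-71375918, plus strand). A CD8 alpha form without most of its cytoplasmic tail is known in the mouse. The sequences across this exon, in capitals, and across the junction that skips it show how few bases tell the 2 forms apart.
Cd8a-201: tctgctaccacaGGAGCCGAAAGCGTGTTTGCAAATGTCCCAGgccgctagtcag
Cd8a-202: tctgctaccacagccgctagtcag
Cd8a-201 had 66.7% of the TPM of Cd8a in replicate 1 (2817 counts) and 100% in replicate 2 (200 counts), and Cd8a-202 had 33.3% (1391 counts) and 0%. The deposited posterior mean counts gave another picture of replicate 2, with 54.0 of 200 counts on Cd8a-202 (27.0%), beside 33.1% in replicate 1. The absence of Cd8a-202 in replicate 2 thus depended on which of the deposited estimates was read.

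Cd4-201 had 90.0% of the TPM of Cd4 in replicate 1 and 100% in replicate 2, and the retained intron model Cd4-205 had 7.84% (119.6 counts) and 0%. Cd247-201 had 87.3% and 92.8%, and Cd247-207, a noncoding model, 3.21% and 7.22% on 17.8 and 2 counts. Trbc1-202 had 100% of the TPM of Trbc1 in both libraries. With 1128 counts over all members in replicate 2, minor transcripts were at the limit of detection there.

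Other genes of the receptor were few. Of 12 names listed, 7 were found in the tables and 4 were tested, with 0 higher and 2 lower under TMM and 0 and 4 under total count scaling. Trat1, an adaptor that stabilises the receptor, had 139 counts in replicate 1 and 0 in replicate 2. Fcer1g, a chain related to zeta that also serves Fc receptors on other cells, had 2551 and 89 counts and a log2 ratio of -1.01 under TMM. The gamma chain constant genes Tcrg-C1, Tcrg-C2 and Tcrg-C4 had 50, 53 and 49 counts in replicate 1 and 0 each in replicate 2. Tcrg-C4 did not pass the filter on low values, and the other two were not called under TMM and were lower under total count scaling.

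Signalling genes downstream of the receptor were lower as a group, beside a background that was also lower. All 27 were tested, with 4 higher and 15 lower under TMM, 1 and 22 under total count scaling, and a median of -1.0 under TMM against -0.55 for all tested genes. Ptprc, the CD45 phosphatase of all white cells, had 72733 and 721 counts (log2 ratio -2.82 under TMM), Fyb, an adaptor, 6044 and 120 (-1.82), and Syk, a kinase used mainly by B and myeloid cells, 19086 and 668 (-1.0). The lowest were Nck1, an adaptor that binds the epsilon chain (2538 and 14 counts, -3.67), and Themis, a regulator of T cell selection (1670 and 11, -3.41).

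The genes called higher in this group under TMM were Lat, Zap70, Vav1 and Lck, and Vav1 and Lck are named here after their values were seen. Lat, the adaptor phosphorylated by ZAP-70, had 913 and 428 counts (log2 ratio 2.74) and was higher under both scalings. Zap70, the kinase that docks on the phosphorylated CD3 and zeta chains, had 240 and 44 counts (1.39). Lck, the kinase carried by CD4 and CD8, had 2428 and 315 counts (0.89), and Vav1, an exchange factor, had 3896 and 660 (1.27). The GC contents of Lat and Zap70 were 57.9% and 57.8%, and with the GC trend removed their ratios were 0.34 and -0.99. For Lck and Vav1, at 55.4% and 52.7% GC, the GC-removed ratios were -0.49 and 0.66. Zap70 and Lck thus changed sign, with Lck close to the median of -0.55 that the removal keeps. Nck1 and Themis stood at the other end, at 41.2% and 38.9% GC, and had GC-removed ratios of -2.36 and -1.93.

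T cell identity genes were set beside the members. In bulk spleen their counts do not check the label, and the part of other cells in them was not tested. All 18 reached 1 TPM in replicate 1 and 16 did in replicate 2, and together they had 1012 and 157.4 TPM. Under TMM 5 were higher and 8 lower, beside 24.4% and 38.5% of all tested genes. Under total count scaling 1 was higher and 11 lower, beside 14.6% and 58.5%. The TMM median was -0.67, against -0.55 for all tested genes. The most abundant were Cd2, an adhesion receptor (3532 and 212 counts, log2 ratio -0.23 under TMM), S1pr1, which guides exit from lymphoid tissue (10059 and 211, -1.74), and Tcf7, a transcription factor of naive T cells (5294 and 160, -1.22). Gata3 and Ccr7 had the highest ratios (185 and 73 counts, 2.49; 2260 and 422, 1.41), and Cd28 and Il7r the lowest (2119 and 12, -3.63; 5426 and 36, -3.40).

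Because base composition moved with the ratio over the whole table, the members were set against that trend. Their GC contents ran from 45.6% (Cd3g) to 52.0% (Cd247), a narrow part of the range. With the GC trend removed and the overall median of -0.55 kept, Cd3g and Cd8a had log2 ratios of -0.03 each. Cd3d was at 0.24, Trbc1 at 0.23, Cd8b1 at 0.25 and Trbc2 at 0.74. Lower values remained for Cd3e at -1.72, Cd4 at -1.88 and Cd247 at -0.99, beside Trac. The trend value removed was -0.051 for Cd3d and -0.052 for Cd3e, so removal could not change the order of Cd3d above Cd3e. For Cd8a and Cd4 it was -0.531 and 0.324, and Cd8a stood above Cd4 before and after removal. The cause of these differences was not tested.

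**Figure D5:**
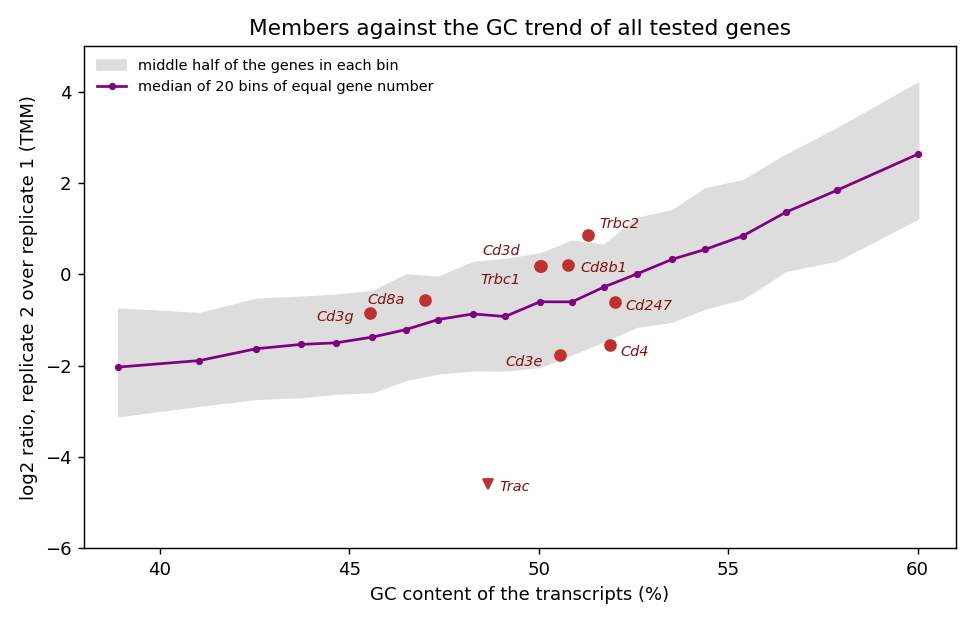
Log2 ratio of replicate 2 over replicate 1 (TMM) against the GC content of the transcripts (percent), with the line for the median of 20 bins of the tested genes and the grey band from the lower to the upper quartile of each bin. Cd3g, Cd8a, Cd3d, Trbc1, Cd8b1 and Trbc2 lie above the line and Cd3e, Cd4 and Cd247 below it. The triangle for Trac is its ratio at the floor of 3 counts, -4.59.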

How the data were processed

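Polyadenylated RNA of 1 mouse spleen was measured in technical replicates 1 and 2, which the labels date to different times. Per the file headers and deposited notes, reads were aligned to the transcriptome of mm10 with GENCODE M4, and the aligner, quantifier and versions are not given in the sources used here. Each deposited row carries, per the file headers, an expected count estimated by the authors from aligned reads, and beside it TPM, the percent of a gene's TPM per transcript, posterior mean counts, and, as an other measure, lengths and TPM interval bounds. Depth was 27528824 and 3806381 counts. The 42462 of 43346 gene identifiers that matched took symbols, coordinates and GC content from GENCODE M21 (GRCm38), whose transcripts gave the sequences; no protein sequences were used.

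Counts were rounded and scaled with edgeR 4.0.16 (TMM over all genes, R 4.3.3). Tested genes had 50 or more counts in all and a mean TPM of 1 or more. Ratios had exact Clopper-Pearson 95% intervals conditional on the summed count, ratios of ratios conditional exact intervals, and a count of 0 a floor of 3 counts per library. Lists hold zero counts at that floor. Calls needed a whole interval beyond 1.5-fold. The rule was run on data simulated with counting error only, without the GC trend or other shifts of these libraries, so it does not check the calls made here. It called 1 of 12267 unchanged genes, 30 of 50 set 2-fold higher and 28 of 50 set 2-fold lower. Alternatives were DESeq2 1.42.0 and total count scaling, TPM, no filter, a 2-fold threshold, 99% intervals and removal of GC and length trends. Named genes were the 10 members and, of each other list, the 3 with the highest mean TPM and the 2 highest and 2 lowest ratios. A gene that this rule names is not reported here. The members and lists were chosen with earlier results of these data known. Rows without an Ensembl identifier were left out of library sizes. Other steps used scipy 1.17.1, pandas 2.3.3, matplotlib 3.10.9 and numpy 2.4.6 in Python 3.11.15.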

Additional observations from a re-analysis of the deposited data

Results flagged for a closer look

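Outside the genes with an Ensembl identifier, replicate 2 held 8 counts on 26345 rows and replicate 1 held 3, with no control sample to set them against.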

How the results depend on the processing

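No paired analysis was possible because each group has 1 library. Depth limited replicate 2, where the members had 27 to 328 counts and Trac 0. Members called lower numbered 3 under TMM, 6 under total count scaling, 6 with globin and mitochondrially encoded genes left out of the total, 10 by TPM with a pseudocount of 1 or of 0.1, which has no interval and lies beside 80.8% and 81.5% of all tested genes, and 6 with GC and length trends removed. The number called higher was 1 under TMM and 0 under both total count scalings, both TPM settings, a 2-fold threshold and removal of the GC trend or of GC and length. TMM sizes from the tested genes alone, added after seeing the data, left 1 and 3, and moved the count over all genes from 3040 higher and 4798 lower to 3492 and 4060. Subunit pairs called numbered 4 by counts, 8 by TPM and 8 by TPM with Cd3g-201 alone for Cd3g (added after seeing the data), and members with the same leading transcript 4 by TPM share and 5 by count share. Values of the opposite sign to TMM were, in the order total count, total count without globin and mitochondrial genes, TPM with a pseudocount of 1 and of 0.1, and GC and length removed, -0.788, -0.341, -1.947, -2.002 and -0.291 for Cd3d, -0.797, -0.35, -2.053, -2.083 and -1.193 for Trbc1, and -0.781, -0.333, -1.925, -1.988 and -0.173 for Cd8b1. For Trbc2 they were -0.125 (total count), -1.421 and -1.429 (TPM) and -0.644 (GC and length removed), and for Cd8a 0.394 (GC and length removed). The cause was not tested. Of the values for single members under the alternatives, 81 kept their side, 16 passed the threshold only in the alternative, 3 only under TMM and 20 changed sign. Part of the 81 was fixed in advance. Dropping the filter could change no member, since all had passed it, and using Cd3g-201 alone could change only Cd3g.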
